A study of Arabidopsis thaliana with 4 samples.

Results

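The genes described are 48 nuclear genes of Arabidopsis thaliana that encode the light-harvesting antenna of both photosystems, the nuclear subunits of the photosystems, plastocyanin, a cytochrome b6f subunit and subunits of the chloroplast ATP synthase. They were picked by locus code and role out of the 31319 loci of the deposited tables, by a rule that uses no level. These genes were chosen with earlier results of these data known. By role they are 6 antenna genes of photosystem I (LHCA1 to LHCA6), 15 antenna genes of photosystem II (LHCB1 to LHCB7, several of them in copies), 12 photosystem I genes (PSA), 10 photosystem II genes (PSB) and 5 genes of electron carriers and ATP synthase (PETE1, PETE2, PETC, ATPC1 and ATPD). All 48 were found, and all passed the filter on low values in every comparison.

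Leaf RNA of plants of the accession Col-0, 4 weeks of age, was sequenced in 4 libraries, with 1 library per group and leaf material from 6 plants in each. The groups are wild type (WT) and myc2, which lacks normal function of MYC2, a transcription factor of jasmonate signalling (the allele myc2-2, per the treatment protocol), each in air before submergence and at R3. Per the sample labels R3 was 3 h after submergence, whereas the protocol names 24 h of submergence in darkness and harvests at 0 h and 24 h after reoxygenation, so the time of R3 rests on the labels. R3 therefore differs from air in darkness, submergence, the return to air and the hour of harvest, and these cannot be told apart, since no group of plants was labelled as kept dark in air. With 1 library per group there is no spread between replicates to set a difference against, so the results are values and ratios without tests.

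Light-harvesting proteins bind chlorophyll and pass the absorbed energy to the reaction centres of photosystem I and photosystem II in the thylakoid membrane. LHCB1, LHCB2 and LHCB3 form the trimers of the main antenna of photosystem II, LHCB4, LHCB5 and LHCB6 are the minor antenna proteins that connect those trimers to its core, and LHCA proteins form the belt of photosystem I. The genes for the reaction centre proteins themselves lie in the plastid genome and are not among the 48, and the nuclear genes are known for high transcript levels in lit leaves and for control by light and the circadian clock.

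Levels are given in RPKM (reads per kilobase of gene length, scaled to 1000000 mapped reads), a scale per length on which genes can be compared. The WT R3 column is headed FPKM, which counts fragments in place of reads, and was used on the same scale. A response below means log2 of R3 over air after 1 RPKM was added to each value, and a gene counts as lower or higher where that ratio reaches 2-fold. The files hold no read totals. An estimate from the spacing of the lowest values, in units of 1000000 fragments, puts the air libraries at 29.2 in WT and 30.5 in myc2, and the R3 libraries at 27.7 and 22.3. By that estimate the least covered of the 48 genes had 295 fragments or more in each library, with counting error of at most 5.82%, which covers neither plants nor library preparation.

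The MYC2 transcript itself was at 45.9 RPKM in WT air and 91.7 in WT R3, against 14.2 and 34.9 in the mutant. Both myc2 libraries thus held less of it than their WT counterparts, and it was not absent from them. The leaf mesophyll markers CA1, a carbonic anhydrase, and RBCS1A, the small subunit of Rubisco, were both detected in every library, with a summed level of 20129 RPKM in air and 2347 at R3 in WT, and of 14814 and 2393 in myc2. The 2 epidermal markers summed to 35.3, 12.4, 109 and 22.7 RPKM in the same order, and the phloem gene SUC2 stood at 55.6, 51.2, 32.2 and 27.9. The 3 guard cell markers summed to 15.6, 26.01, 14.8 and 15.9 RPKM, the 3 floral markers to 2.62, 12.0, 7.62 and 19.9, and the 3 root markers to 11.8, 74.2, 16.4 and 27.0, with the root hair regulator RHD6 listed at 0 throughout. One gene carried most of the floral and of the root sum at WT R3, PI at 11.3 RPKM and PYK10 at 62.8, while AP3 was at 0.651 RPKM in WT air and 0.325 in WT R3, SEP3 at 1.36 and 0.351, and SCR at 8.88 and 11.4. In bulk leaf RNA, fewer cells of a type and less RNA per cell cannot be told apart, and the part of these markers in the results below was not tested.

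Sequence sets the limit on how well the copies of LHCB1 can be told apart, so a stretch of the coding sequence is shown for the 3 copies that lie side by side on chromosome 1. LHCB1.2 (AT1G29910), LHCB1.1 (AT1G29920) and LHCB1.3 (AT1G29930) occupy 10472280 to 10473502 on the minus strand, 10474656 to 10475969 on the minus strand and 10477885 to 10479114 on the plus strand, each as 1 exon, in the RefSeq annotation of TAIR10.1. The authors' build was TAIR10 and their files hold no coordinates. Printed are coding bases 25 to 84, from the genome sequence, with bases that differ from LHCB1.3 in capitals. This window of 60 bases was chosen because LHCB1.1 and LHCB1.2 together differ most from LHCB1.3 there, so it is not typical of the whole.
LHCB1.1: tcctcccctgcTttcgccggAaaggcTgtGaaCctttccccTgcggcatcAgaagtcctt
LHCB1.2: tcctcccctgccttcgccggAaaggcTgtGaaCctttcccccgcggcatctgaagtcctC
LHCB1.3: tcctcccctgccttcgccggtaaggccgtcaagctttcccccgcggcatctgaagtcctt
Over these 60 bases LHCB1.1 differed from LHCB1.3 at 7 positions and LHCB1.2 at 5. Over the whole coding sequence of 804 bases the differences were 31 and 29. LHCB1.4 (AT2G34430) and LHCB1.5 (AT2G34420) are neighbours on chromosome 2 with 91.4% identical coding bases. LHCB2.1 (AT2G05100) and LHCB2.2 (AT2G05070), also on chromosome 2, share 96.6%. Of all exon words of 50 bases, 20.5% in LHCB1.1, 10.6% in LHCB1.2, 17.0% in LHCB1.3, 13.7% in LHCB1.4, 17.3% in LHCB1.5, 22.7% in LHCB2.1 and 28.2% in LHCB2.2 also occur in another locus. LHCA2 shares 8.76% with AT5G28450, and the other 40 genes share none. The sources used here do not say how the authors' counting placed such reads, so the split among the LHCB1 copies and between LHCB2.1 and LHCB2.2 is uncertain. Exons of 16 genes also overlap a gene of the opposite strand, by 100% in LHCB1.5, 61.4% in PSAG, 53.3% in PSAH1, 40.6% in LHCB2.3, 34.1% in PSAE1, 24.8% in PSAH2, 20.4% in LHCB6 and 14.98% in LHCB3. Use of strand is not stated either, so reads of such partners cannot be told apart.

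In air, the 48 genes made up 28.1% of all RPKM in WT and 24.0% in myc2, and at R3 4.56% and 4.11%. They took 32 of the 50 highest loci in either air library and 5 of 50 in either R3 library. Their median level was 3083 RPKM in air and 403 at R3 in WT, and 2622 and 407 in myc2. In WT air 39 of the 48 were at 1000 RPKM or above, and 36 in myc2 air, whereas at R3 the same 3 genes were in both genotypes, LHCB1.3, LHCB1.5 and PSBR. LHCB1.3 was the highest of all 31319 loci in both air libraries. At R3 the highest was the plastid locus ATCG00220, at 6722 RPKM in WT and 25348 in myc2.

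**Figure D1:**
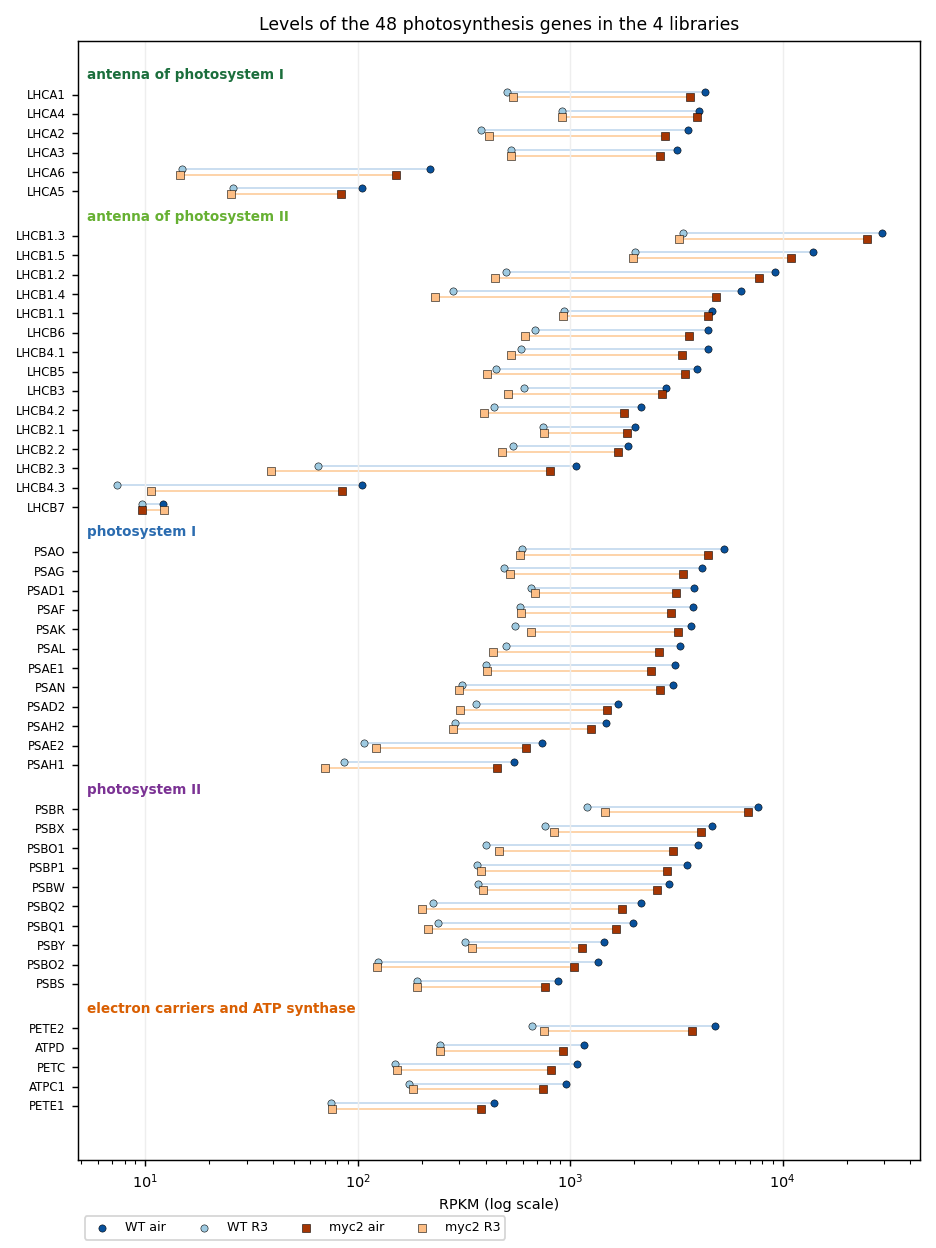
RPKM of each of the 48 genes on a log axis, ordered by class and by level in WT air; circles are WT and squares myc2, dark symbols are air and pale symbols R3, and a line joins air and R3 of 1 genotype. In 47 of the 48 genes both dark symbols lie to the right of both pale ones, and LHCB7 is the exception.

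R3 was at least 2-fold below air in 47 of the 48 genes in WT and in 47 in myc2, and no gene was 2-fold higher in either. LHCB7 was the remaining gene in both. Over all genes past the filter, 10.1% were lower and 31.3% higher in WT, and 11.5% were lower and 23.5% higher in myc2. The median log2 ratio of the 48 genes was -2.76 in WT against 0.57 over all genes, and -2.43 in myc2 against 0.30. After rescaling of the libraries to the median of their ratios, 17.1% of all genes were lower and 17.3% higher in WT, and 15.9% and 17.1% in myc2, and the count of 47 stood in both genotypes under each of 3 rescalings. That rescaling placed the median of all genes at 0.04 in WT and 0.03 in myc2 and that of the 48 genes at -3.37 and -2.76.

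Among the antenna genes of photosystem I, all 6 were lower at R3 in both genotypes, with class medians of -2.84 in WT and -2.54 in myc2 on the log2 scale. LHCA1 (AT3G54890) was at 4309.7 RPKM in WT air and 504 in WT R3, and at 3678 in myc2 air and 537 in myc2 R3. LHCA4 (AT3G47470), which pairs with LHCA1 in the antenna belt, was at 4048 and 921 RPKM in WT and at 3968 and 917 in myc2. These 2 genes were the highest of the class in air, and at R3 LHCA4 stood above LHCA1 in both genotypes, with 4.40-fold less than in air in WT against 8.55-fold less for LHCA1. LHCA2 (AT3G61470) was at 3579 and 380 RPKM in WT and at 2809.7 and 413 in myc2, and LHCA3 (AT1G61520) at 3184 and 529 RPKM in WT and at 2635 and 529 in myc2.

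LHCA5 and LHCA6 are minor antenna proteins that join photosystem I to the chloroplast NDH complex, and they were the lowest of the class. LHCA6 (AT1G19150) was at 219 RPKM in WT air and 14.9 in WT R3, and at 151 in myc2 air and 14.5 in myc2 R3. This was the largest difference of the class, with log2 ratios of -3.79 in WT and -3.29 in myc2. LHCA5 (AT1G45474) was at 104 and 25.8 RPKM in WT and at 83.9 and 25.3 in myc2, the smallest difference of the class, at -1.97 and -1.69. The order of the pair was thus reversed, with LHCA6 above LHCA5 in air and below it at R3.

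The 15 antenna genes of photosystem II carried 49.2% of the RPKM of the 48 genes in WT air and 46.8% in WT R3, and 49.3% and 44.2% in myc2. Of these 15, 14 were lower at R3 in each genotype. Ratios were spread more widely over the antenna genes than over the photosystem, carrier and ATP synthase genes. The interquartile range of the WT response was 1.02 on the log2 scale over the 21 antenna genes of both photosystems and 0.52 over the other 27 genes, and in myc2 it was 0.75 and 0.45. LHCB1.4, LHCB1.2 and LHCB2.3 were more than 16-fold lower in both genotypes, the only ones of the 48 genes in either. LHCB2.1 and LHCB2.2 were less than 4-fold lower in both, as was LHCA5 of photosystem I, and in myc2 so were PSBS, PSBY and ATPD.

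LHCB1, the most abundant antenna protein of plants, had 5 copies that together were at 63501 RPKM in WT air and 7139 in WT R3, and at 53136 in myc2 air and 6853 in myc2 R3. LHCB1.3 (AT1G29930) was at 29419 and 3396 RPKM in WT and at 25076 and 3271 in myc2. LHCB1.5 (AT2G34420) was at 13873 and 2030.4 RPKM in WT and at 10990.1 and 1982 in myc2. These 2 copies were the highest in all 4 libraries. LHCB1.2 (AT1G29910) was at 9200.1 and 497 RPKM in WT and at 7759 and 441 in myc2. LHCB1.4 (AT2G34430) was at 6354 and 281 RPKM in WT and at 4851 and 231 in myc2, the largest difference of all 48 genes, with log2 ratios of -4.50 and -4.39. LHCB1.1 (AT1G29920) was at 4655 and 936 RPKM in WT and at 4460.2 and 928 in myc2, the smallest of the 5, at -2.31 and -2.26.

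The copies of LHCB1 thus changed order between air and R3. LHCB1.1 was the lowest copy in both air libraries and the third at both R3 libraries. Its level was 0.506 times that of LHCB1.2 in WT air and 1.88 times in WT R3, and 0.575 and 2.104 times in myc2. LHCB1.1 held 7.33% of the LHCB1 sum in WT air and 13.1% in WT R3, whereas LHCB1.2 held 14.5% and 6.96% and LHCB1.4 10.01% and 3.93%. The share of LHCB1.3 was 46.3% and 47.6%. Shares in myc2 moved the same way, from 8.39% to 13.5% for LHCB1.1, from 14.6% to 6.44% for LHCB1.2 and from 9.13% to 3.37% for LHCB1.4. A share within a family in a library is not altered by any rescaling of that library, but the shared words given above bear on it.

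LHCB2, which is phosphorylated in state transitions together with LHCB1, had 3 copies of unequal response. LHCB2.3 (AT3G27690) was at 1069 RPKM in WT air and 65.2 in WT R3, and at 803 in myc2 air and 39.1 in myc2 R3, with log2 ratios of -4.02 and -4.33. LHCB2.1 (AT2G05100) was at 2027 and 743 RPKM in WT and at 1849 and 750 in myc2. LHCB2.2 (AT2G05070) was at 1874 and 540.1 RPKM in WT and at 1675 and 476 in myc2. LHCB2.3 stood apart from both others at R3 in either genotype, and its share of the LHCB2 sum was 21.5% in WT air and 4.83% in WT R3, and 18.6% and 3.09% in myc2. It shares no word of 50 bases with another locus, although 40.6% of its exon length overlaps AT3G27700 on the opposite strand.

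LHCB3 (AT5G54270), which forms trimers with LHCB1 and LHCB2, was at 2823 and 607 RPKM in WT and at 2697 and 512 in myc2. Of the minor antenna genes, LHCB5 (AT4G10340) was at 3939 and 450.4 RPKM in WT and at 3477 and 406 in myc2, and LHCB6 (AT1G15820) at 4466 and 685 RPKM in WT and at 3629 and 610.5 in myc2. All 3 were between 4-fold and 9-fold lower at R3. LHCB4.1 (AT5G01530) was at 4457 and 589 RPKM in WT and at 3358 and 529 in myc2, and LHCB4.2 (AT3G08940) at 2165 and 437 RPKM in WT and at 1800.02 and 394 in myc2. The share of LHCB4.1 in the LHCB4 sum was 66.3% in WT air and 57.0% in WT R3, and 64.1% and 56.7% in myc2.

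The least abundant antenna genes of photosystem II were LHCB4.3 and LHCB7. LHCB4.3 (AT2G40100) was at 105 RPKM in WT air and 7.35 in WT R3, and at 84.4 in myc2 air and 10.7 in myc2 R3. It was 14.3-fold lower at R3 in WT and 7.90-fold lower in myc2, the largest difference of responses among the 48 genes, at 0.79 on the log2 scale with a 95% half-width of 0.23 from estimated counting error alone. LHCB7 (AT1G76570), a rare member of the family, was at 12.1 and 9.63 RPKM in WT and at 9.69 and 12.3 in myc2. Its log2 ratios of -0.30 and 0.31 exceeded the estimated counting half-widths of 0.21 and 0.22, but both depend on the scaling. With libraries rescaled to the median of ratios the values were -0.86 and 0.02, with equal sums -0.08 and 0.39, and with equal sums of all loci but the 48 genes -0.46 and 0.07.

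Photosystem I genes were all lower at R3, 12 of 12 in both genotypes, with class medians of -2.73 in WT and -2.45 in myc2 and narrow ranges, from -3.28 to -2.21 in WT and from -3.14 to -2.16 in myc2. PSAO (AT1G08380), one of the subunits at which the photosystem II antenna docks in state transitions, was at 5281 and 596 RPKM in WT and at 4472 and 579 in myc2. PSAG (AT1G55670), a membrane subunit beside the antenna belt, was at 4168 and 491 RPKM in WT and at 3388.5 and 522 in myc2. These 2 were the highest of the class in WT air. PSAN (AT5G64040), a lumenal subunit, had the largest difference, at 3036 and 311 RPKM in WT and at 2644 and 299 in myc2. PSAF (AT1G31330), which docks plastocyanin, was at 3771 and 584 RPKM in WT and at 2969.7 and 589 in myc2. PSAK (AT1G30380), a membrane subunit opposite PSAG, was at 3720.1 and 549.6 RPKM in WT and at 3229 and 652 in myc2, and PSAL (AT4G12800), also part of the antenna docking site, at 3284 and 501 RPKM in WT and at 2609 and 432 in myc2.

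The stromal subunits that bind ferredoxin come in pairs of genes. PSAD1 (AT4G02770) was at 3845 and 656 RPKM in WT and at 3159 and 685 in myc2, and PSAD2 (AT1G03130) at 1681 and 362 RPKM in WT and at 1492 and 304 in myc2. PSAE1 (AT4G28750) was at 3129 and 403 RPKM in WT and at 2409 and 407 in myc2, and PSAE2 (AT2G20260) at 738 and 108 RPKM in WT and at 623 and 122 in myc2. The antenna docking subunit PSAH is encoded by PSAH1 (AT3G16140), at 545 and 86.6 RPKM in WT and at 451 and 70.4 in myc2, and PSAH2 (AT1G52230), at 1473 and 287 RPKM in WT and at 1256 and 280.5 in myc2. In none of these pairs did the copies change order. In air and at R3 of WT and then of myc2, the first copy held 69.6%, 64.5%, 67.9% and 69.3% of the PSAD sum, 80.9%, 78.9%, 79.5% and 76.9% of the PSAE sum, and 27.0%, 23.2%, 26.4% and 20.1% of the PSAH sum.

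Photosystem II genes were also lower at R3 in 10 of 10 cases in both genotypes, with class medians of -3.02 in WT and -2.71 in myc2. PSBR (AT1G79040), a small subunit near the oxygen-evolving complex, was the highest, at 7622 and 1202 RPKM in WT and at 6856 and 1460 in myc2. PSBX (AT2G06520), a small membrane subunit, came next at 4674 and 765 RPKM in WT and at 4125 and 838 in myc2. PSBO1 (AT5G66570), the manganese-stabilizing protein of water oxidation, was at 4017 and 403 RPKM in WT and at 3051 and 465 in myc2. Its copy PSBO2 (AT3G50820) was at 1358 and 125 RPKM in WT and at 1048 and 124 in myc2, and had the largest difference of the class in WT, a log2 ratio of -3.43. The share of PSBO1 in the pair was 74.7% in air and 76.3% at R3 in WT, and 74.4% and 79.0% in myc2.

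The other oxygen-evolving proteins were lower by similar factors. PSBP1 (AT1G06680) was at 3540.2 and 365 RPKM in WT and at 2848 and 381 in myc2. PSBQ1 (AT4G21280) was at 1978 and 238 RPKM in WT and at 1648 and 216 in myc2, and PSBQ2 (AT4G05180) at 2166 and 227 RPKM in WT and at 1756 and 201 in myc2. PSBQ2 was the higher copy in both air libraries and PSBQ1 in both R3 libraries, with shares of PSBQ1 of 47.7% and 51.2% in WT and 48.4% and 51.8% in myc2. PSBW (AT2G30570), a small membrane subunit, was at 2922 and 369 RPKM in WT and at 2578 and 391 in myc2. The smallest differences of the class were those of PSBY (AT1G67740), at 1449 and 322 RPKM in WT and at 1141 and 346 in myc2, and of PSBS (AT1G44575), the protein that switches on the thermal dissipation of excess light, at 881 and 190 RPKM in WT and at 764 and 191 in myc2. In myc2 both were less than 4-fold lower at R3.

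Of the electron carrier and ATP synthase genes, 5 of 5 were lower at R3 in both genotypes, with class medians of -2.54 in WT and -2.32 in myc2. PETE2 (AT1G20340), the main plastocyanin gene, was at 4789 and 664 RPKM in WT and at 3763 and 750 in myc2, and held 91.6% and 89.9% of the plastocyanin sum in air and R3 of WT and 90.8% in both libraries of myc2. PETE1 (AT1G76100) was at 438 and 74.7 RPKM in WT and at 380.4 and 75.6 in myc2. PETC (AT4G03280), the Rieske protein of cytochrome b6f, was at 1075 and 149 RPKM in WT and at 810 and 153 in myc2. ATPD (AT4G09650) and ATPC1 (AT4G04640) encode subunits of the ATP synthase; ATPD was at 1169 and 245 RPKM in WT and at 926 and 243 in myc2, and ATPC1 at 960.1 and 174 RPKM in WT and at 743 and 182 in myc2.

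**Figure D2:**
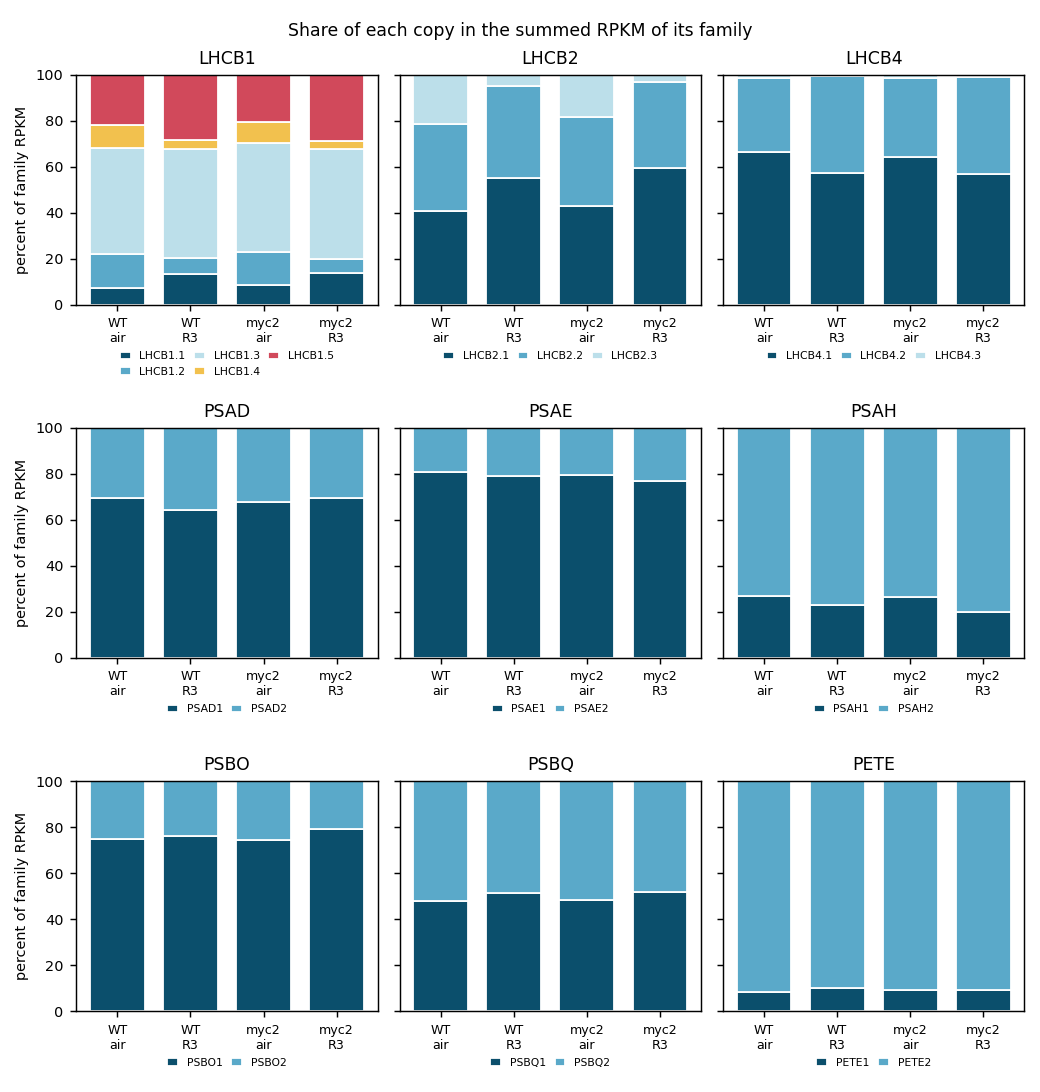
Percent of the summed RPKM of each of 9 gene families held by each copy, as stacked bars with 1 bar per library. The LHCB2.3 segment is at 21.5% in WT air and 4.83% in WT R3, while the PETE2 segment lies between 89.9% and 91.6% in all 4 libraries.

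The 2 genotypes ordered the genes much alike. The WT and myc2 responses, which share no library, had a Pearson r of 0.96 and a Spearman rho of 0.94 over the 48 genes, and an r of 0.94 without LHCB7. This is a correlation across genes, which are not independent replicates. Summed over the genes, air exceeded R3 by 7.29-fold in WT and 6.13-fold in myc2. By class the sums were 6.505-fold and 5.47-fold apart for the antenna of photosystem I, 7.67-fold and 6.85-fold for the antenna of photosystem II, 7.03-fold and 5.81-fold for photosystem I, 7.28-fold and 5.597-fold for photosystem II, and 6.45-fold and 4.72-fold for carriers and ATP synthase. The sum of LHCB1 differed by 8.89-fold in WT and 7.75-fold in myc2, the most of these groups in both.

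**Figure D3:**
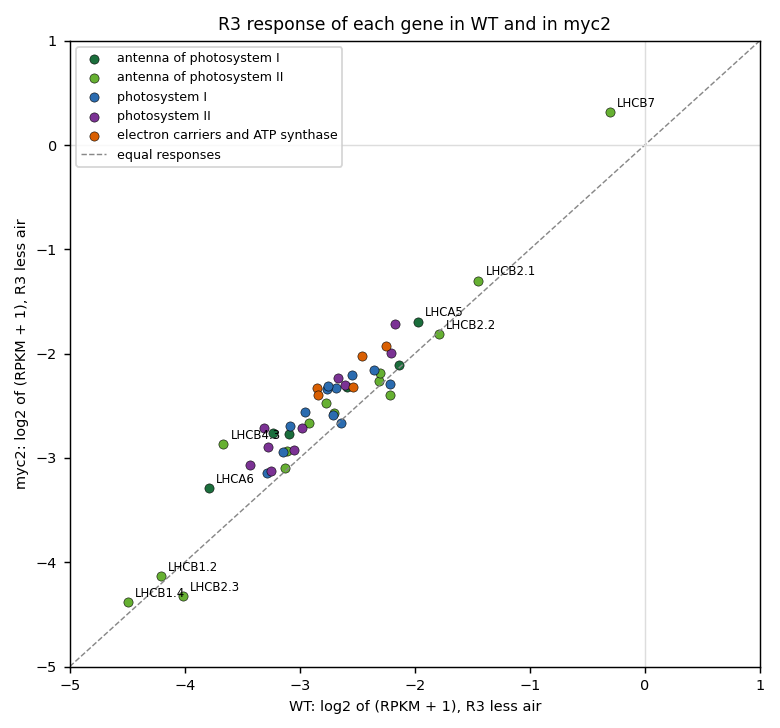
Response of each gene as log2 of R3 over air, on RPKM plus 1, in WT on the horizontal axis and in myc2 on the vertical axis, 1 point per gene coloured by class, with a dashed line at equal responses. Between -3.5 and -2 lie 39 of the points in WT and 38 in myc2, 43 of 48 lie above the dashed line, and LHCB1.4, LHCB1.2 and LHCB2.3 lie at the lower left.

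The difference of responses, myc2 less WT, was above 0 in 43 of 48 genes and below 0 in 65.1% of all genes, and none of the 48 reached 2-fold in either direction. Over all genes, 5.2% were at least 2-fold lower and 1.51% at least 2-fold higher on that measure. The median was 0.27 for the 48 genes and -0.16 for all genes. The exceptions were LHCB2.2, LHCB2.3, LHCB3, PSAD2 and PSAH1, at -0.02, -0.31, -0.18, -0.08 and -0.02. PSBO1 was among the genes with the largest positive values, at 0.60, after LHCB4.3 and LHCB7, which was at 0.62. The sign count depends on the scale of each library, with 47, 31 and 39 of 48 genes above 0 after rescaling to the median of ratios, to equal sums and to the sum without the 48 genes, where 43.3%, 77.1% and 72.9% of all genes were below 0. After the first of these LHCB4.3 passed 2-fold, at 1.07. Relative to the median of all genes, the 48 genes lay higher by 0.42 to 0.48 under these rescalings and by 0.43 as deposited. Rescaling a whole library moves that difference only through the pseudocount and filter.

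In air, all 48 genes were lower in myc2 than in WT, by small amounts and none by 2-fold. Their log2 ratios lay between -0.53 and -0.03 with a median of -0.28, where the median of all genes was 0.22 and 21.4% of all genes lay below 0. Over all genes, 0.343% were at least 2-fold lower and 2.47% at least 2-fold higher in myc2. LHCA6 at -0.53, LHCB2.3 at -0.41 and PETC at -0.41 were lowest, and LHCA4 at -0.03, LHCB1.1 at -0.06 and LHCB3 at -0.07 were nearest to 0. Class medians lay between -0.35 for carriers and ATP synthase and -0.26 for photosystem I. Rescaled to equal sums 47 of 48 were below 0, with LHCA4 at 0.00, and under the other rescalings all 48 were. Between the same libraries WT had 55.6 RPKM of the phloem gene SUC2 to 32.2 in myc2, 27.2 of the epidermal gene PDF1 to 93.5, and 1811 of the mesophyll gene CA1 to 1114.

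**Figure D4:**
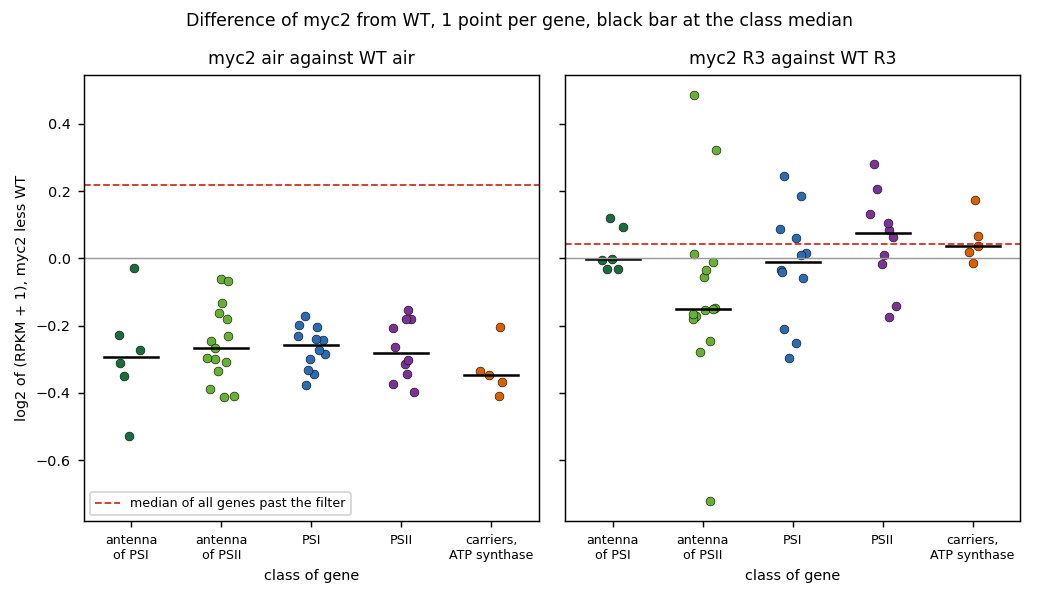
Log2 ratio of myc2 to WT, on RPKM plus 1, for each gene by class, in air on the left and at R3 on the right, with black bars at class medians and a dashed line at the median of all genes. In air all 48 points lie below 0 and below the dashed line at 0.22, while at R3 they scatter around 0, from -0.72 to 0.49.

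At R3 the median ratio of myc2 to WT was nearer to 0 than in air, but the ratios were spread more widely. Their interquartile range was 0.23 on the log2 scale at R3 and 0.14 in air. Of the 48 genes, 26 were below 0 and 22 above, where 44.0% of all genes were below 0. The median was -0.01 against 0.04 for all genes, and none was 2-fold apart, where 1.6% of all genes were at least 2-fold lower and 1.92% at least 2-fold higher in myc2. Below 0 were 12 of 15 antenna genes of photosystem II, 4 of 6 of photosystem I, 6 of 12 photosystem I genes, 3 of 10 photosystem II genes and 1 of 5 carrier and ATP synthase genes. The lowest was LHCB2.3 at -0.72, followed by PSAH1 at -0.30 and LHCB1.4 at -0.28, and the highest were LHCB4.3 at 0.49, LHCB7 at 0.32 and PSBR at 0.28. Rescaling to equal sums, or to the sum without the 48 genes, put 41 of 48 below 0, where 60.4% and 61.8% of all genes were below 0, and rescaling to the median of ratios put 27 below 0, where 45.2% of all genes were. The direction of the set at R3 therefore rests on the scaling. The plastid locus ATCG00220, which enters these sums, was at 6722 RPKM in WT R3 and 25348 in myc2 R3.

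Promoters are shown, as examples, for some of the 10 genes whose window before the annotated start holds the G-box. That sequence is bound by basic helix-loop-helix factors such as MYC2 and by HY5. Printed are the 250 bases before the gene start, read 5′ to 3′ on the strand of the gene from TAIR10.1, with matches on either strand in capitals. The motifs are the G-box CACGTG, the I-box GATAAG of light-regulated promoters and the CCAATC element. LHCA4 is at chr3:17495034-17495283 on the minus strand, LHCB2.3 at chr3:10255656-10255905 on the plus strand, PSBQ1 at chr4:11334102-11334351 on the plus strand, where the window overlaps AT4G21270, and PSBQ2 at chr4:2673244-2673493 on the minus strand.
LHCA4: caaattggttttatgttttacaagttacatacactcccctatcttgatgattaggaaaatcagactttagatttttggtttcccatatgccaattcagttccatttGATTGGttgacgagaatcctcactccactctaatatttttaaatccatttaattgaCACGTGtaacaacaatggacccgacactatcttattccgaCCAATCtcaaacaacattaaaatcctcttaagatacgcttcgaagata
LHCB2.3: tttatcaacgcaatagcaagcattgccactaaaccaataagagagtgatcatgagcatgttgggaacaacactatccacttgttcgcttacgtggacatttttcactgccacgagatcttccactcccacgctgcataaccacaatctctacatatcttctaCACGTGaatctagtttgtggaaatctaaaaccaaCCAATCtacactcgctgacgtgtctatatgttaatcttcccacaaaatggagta
PSBQ1: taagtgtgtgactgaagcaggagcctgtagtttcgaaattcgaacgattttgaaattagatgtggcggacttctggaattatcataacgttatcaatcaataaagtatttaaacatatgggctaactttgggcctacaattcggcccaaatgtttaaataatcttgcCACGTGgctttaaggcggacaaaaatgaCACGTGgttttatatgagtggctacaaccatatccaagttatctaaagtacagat
PSBQ2: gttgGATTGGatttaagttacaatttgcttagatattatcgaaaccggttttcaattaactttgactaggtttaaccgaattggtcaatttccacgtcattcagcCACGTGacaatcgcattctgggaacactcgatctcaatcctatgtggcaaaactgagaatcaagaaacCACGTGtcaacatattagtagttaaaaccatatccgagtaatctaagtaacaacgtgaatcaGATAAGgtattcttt
The first base of the G-box lies 88 bases before the start in both LHCA4 and LHCB2.3, and PSBQ1 and PSBQ2 each hold 2 of them. LHCA4 and LHCB2.3 share a G-box and CCAATC. Their WT responses were -2.14 and -4.02, and a link of these motifs to the response was not tested.

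Over the 48 windows, CACGTG was found in 10, or 20.8%, against 6.49% of the windows of 27443 genes. GATAAG was found in 11, or 22.9%, against 12.3%. CCAATC was found in 14, or 29.2%, against 10.2%. By class CCAATC occurred in 3 of 6 antenna genes of photosystem I, 7 of 15 of photosystem II, none of 12 photosystem I genes, 1 of 10 photosystem II genes and 3 of 5 carrier and ATP synthase genes. The evening element AAAATATCT of clock-regulated promoters was found in 2, or 4.17%, against 2.36%. Both strands were searched, no motif of the 4 holds another, and a match is a description of the sequence only. The 10 genes with a G-box were LHCA4, LHCB2.3, LHCB4.1, LHCB6, LHCB7, PSAE2, PSAH2, PSBQ1, PSBQ2 and ATPD, with a median WT response of -2.73 against -2.76 for the 38 without one.

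Genes that act beside the 48 were described by 6 lists, chosen for their roles with earlier results of these data known. Of 16 Calvin cycle genes, 16 were lower at R3 in both genotypes, with medians of -2.68 in WT and -2.14 in myc2. Over all genes past the filter, 10.1% were lower in WT and 11.5% in myc2. The lowest was RBCS3B, a Rubisco small subunit, at 8905 and 561 RPKM in WT and at 6170.04 and 579 in myc2, and the highest GAPA1, a plastid glyceraldehyde phosphate dehydrogenase, at 1103 and 325 RPKM in WT and at 835 and 317 in myc2. Of 13 chlorophyll synthesis genes, 10 were lower in each genotype. DVR, the divinyl reductase, was lowest in ratio in WT, at 101 and 5.93 RPKM in WT and at 80.9 and 6.62 in myc2. PORB, a protochlorophyllide reductase, was lowest in myc2, at 752 and 64.3 RPKM in WT and at 641 and 39.7 in myc2. The highest in both was GUN4, the activator of magnesium chelatase, which was not among the 10, at 140.4 and 132 RPKM in WT and at 136 and 169 in myc2.

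Of 14 insertion and assembly genes, 13 were lower in WT and 10 in myc2, and none was higher. Among all genes past the filter, 10.1% were lower and 31.3% higher in WT, and 11.5% and 23.5% in myc2. PPL1, a factor of photosystem II repair, was lowest in ratio in WT, at 139 and 18.5 RPKM in WT and at 104 and 21.5 in myc2, and LTD, which guides antenna proteins to their insertion route, was lowest in myc2, at 56.9 and 12.0 RPKM in WT and at 57.8 and 7.83 in myc2. LPA1, an assembly factor of photosystem II, was highest in both at 24.6 and 15.1 RPKM in WT and at 20.7 and 17.1 in myc2. Among 15 other genes of thylakoid electron transport and its regulation, 11 were lower in each genotype. FNR2, a ferredoxin reductase, was lowest at 705 and 60.1 RPKM in WT and at 567 and 43.3 in myc2. The ferredoxin gene FD1 was at 569 and 773 RPKM in WT and at 411 and 843 in myc2, and was 2-fold higher in myc2, at 1.03, and not in WT, at 0.44; that difference was not tested.

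Relatives of the antenna genes, listed as LHC-like and stress genes, did not all go the same way. Of 7 genes, 5 were lower and 2 higher in WT, and 3 were lower and 2 higher in myc2. The shares over all genes were 10.1% lower and 31.3% higher in WT, and 11.5% and 23.5% in myc2. The 2 higher ones were both early light-induced proteins, which share the chlorophyll-binding fold of LHC proteins. ELIP1 was at 10.8 and 73.4 RPKM in WT and at 9.25 and 61.8 in myc2. ELIP2 was at 1.64 and 28.3 RPKM in WT and at 2.24 and 23.1 in myc2. SEP1, a stress-enhanced protein of the same superfamily, was the lowest of the list at 273 and 50.6 RPKM in WT and at 231 and 59.3 in myc2.

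Of 9 regulators, 1 was lower and 2 higher in each genotype, the higher ones being HY5 and PIF3 in WT and HY5 and CGA1 in myc2. Over all genes 10.1% were lower and 31.3% higher in WT, and 11.5% and 23.5% in myc2. The counts thus do not set the regulators apart from all genes. PIF3 had log2 ratios of 1.14 in WT and 0.87 in myc2, and CGA1 of 0.36 and 1.06, and the differences were not tested. GLK1 and GLK2, transcription factors that activate genes of the photosystems and of chlorophyll synthesis, did not reach 2-fold, with GLK1 at 76.2 and 134 RPKM in WT and at 69.2 and 104 in myc2, and GLK2 at 55.2 and 47.8 RPKM in WT and at 49.3 and 39.6 in myc2. HY5, an activator of light-induced genes, was the highest in ratio at 5.33 and 33.5 RPKM in WT and at 5.90 and 32.8 in myc2. PIF4, a phytochrome-interacting factor, was the lowest at 25.4 and 8.37 RPKM in WT and at 35.4 and 7.99 in myc2.

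**Figure D5:**
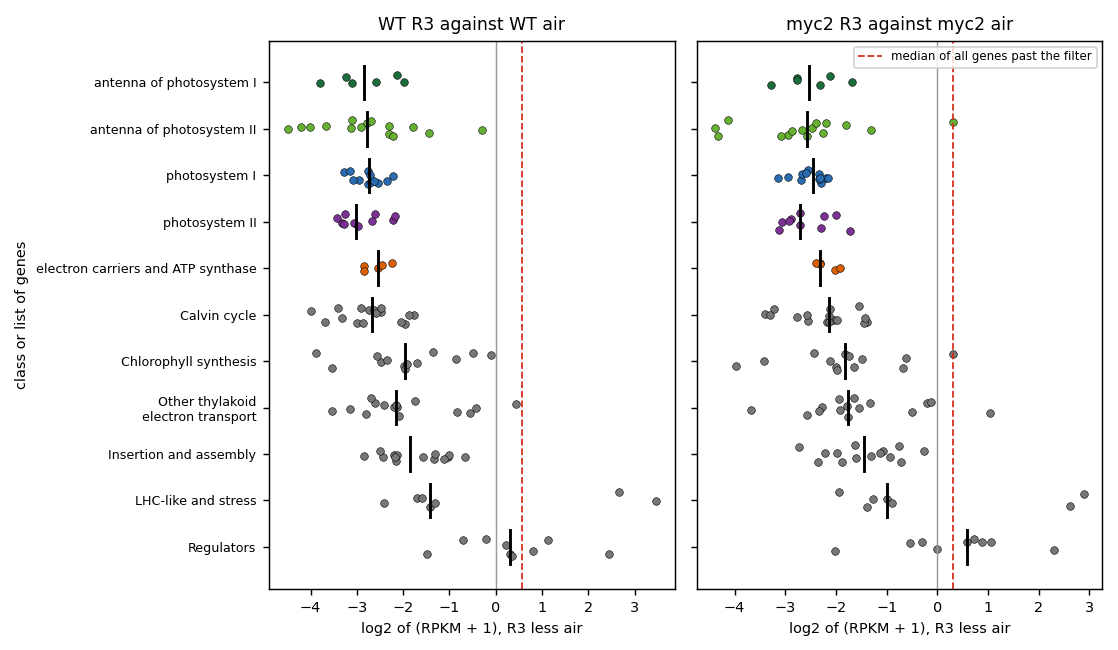
Log2 ratio of R3 to air, on RPKM plus 1, for each gene of the 5 classes in colour and of the 6 other lists in grey, in WT on the left and myc2 on the right, with black bars at medians and a dashed line at the median of all genes. The 5 class medians lie between -3.02 and -2.54 in WT, the Calvin cycle median at -2.68 lies among them, and ELIP1 and ELIP2 lie to the right of 0 at 2.66 and 3.47.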

How the data were processed

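Leaf RNA of 4 groups was sequenced, with 1 library per group, and groups were taken from the sample titles. Each library has its own deposited table of values by locus, in RPKM for WT air, myc2 air and myc2 R3, and under the heading FPKM for WT R3, per the file headers. Per the submitters' processing notes, TopHat, Cufflinks and the build TAIR10 were used; the sources used here give no version, no settings, no use of strand and no rule for reads with several matches. Values of near-identical copies and of genes overlapping on opposite strands are therefore uncertain. Neither RPKM nor FPKM is a count, so count models were not used.

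Log2 ratios were computed from RPKM plus 1, which understates the ratios of low genes, for genes whose mean over the compared libraries reached 1 RPKM, and genes at least 2-fold apart were counted. Depth was estimated by finding which step of RPKM times exon length recurs most at low values; 16.4% to 18.8% of low values came out within 0.02 of a whole fragment, so the depths are approximate and counting errors rest on them. Gene models, shared words of 50 bases, coding identity and promoters came from the RefSeq annotation of TAIR10.1. Tools were Python 3.11.15, numpy 2.4.6, pandas 2.3.3, biopython 1.88 and matplotlib 3.10.9. The counting of ratios was run on simulated data with planted changes of known size and counting noise alone. Those data held no spread between plants or libraries, so the run checks the code and not the results.

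The 48 genes, the lists and the naming rule were chosen with earlier results of these data known. The rule asked for values in all 4 libraries for the 2 highest and 2 lowest genes of each class in WT air, the extremes of each class and comparison, all copies of 9 families, every gene not 2-fold lower at R3, both extremes of each other list in the WT response, ELIP1, ELIP2, GLK1, GLK2 and MYC2. Values of the remaining genes, and of LTD, PORB, PIF3, CGA1 and single markers, are given beyond that rule, the latter chosen after their values were seen. Alternatives were pseudocounts of 0.1 and 5, no filter, a filter at 5 RPKM, 3 rescalings, near-identical copies summed, shares over nuclear loci alone and, added after seeing the data, the 26 genes without shared words or overlap alone.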

Additional observations from a re-analysis of the deposited data

Results flagged for a closer look

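In 4 genes myc2 was lower than WT in air and higher than WT at R3, as deposited and under each of the 3 rescalings, by more than estimated counting error. As deposited all 48 genes were below 0 in air and 22 of them were above 0 at R3. The share of all genes that meet the same rule was not computed. With 1 library per group the difference was not tested. LHCB4.3 had log2 ratios of myc2 to WT of -0.31 in air and 0.49 at R3, which is a difference of 0.79. PSBO1 had ratios of -0.40 and 0.20, which differ by 0.60. PSAK had ratios of -0.20 and 0.25, which differ by 0.45. PSBR had ratios of -0.15 and 0.28, which differ by 0.43. Each of these differences equals the difference of the R3 responses of the gene. Groups of 1 library hold no sample that could stand apart from others of its group.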

How the results depend on the processing

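No paired analysis was possible because each group has 1 library and no test was run. The count of genes at least 2-fold lower at R3 was 47 in both genotypes under every pseudocount, filter and rescaling, 43 of 44 with near-identical copies summed, and 25 of 26 among genes without shared words or overlap, a smaller count because fewer genes were taken. The counts of 0 in the genotype comparisons and in the difference of responses held under all of these, except that rescaling to the median of ratios gave 1 gene in the difference of responses. Medians less that of all genes, -3.33 in WT and -2.74 in myc2 as reported, were -3.08 and -2.61 with a pseudocount of 5, -2.79 and -2.43 without a filter, and -3.43 and -2.85 with a filter at 5 RPKM, since these choices move the median of all genes. Without a filter the median was -0.33 for myc2 against WT in air, reported as -0.50, and 0.27 for the difference of responses, reported as 0.43. Of 94 alternative values of the main results 83 stayed within the tolerance, which for medians was 0.1 on the log2 scale. Counts and shares carry no sign, so no reversal could be called for them. In each of the 5 comparisons the median of the 48 genes less that of all genes kept its sign under every alternative. That of myc2 against WT at R3, -0.05 as reported, was itself smaller than the tolerance. Rescaling a whole library shifts the 48 genes and all genes alike, apart from effects of the pseudocount and filter. The 3 rescalings therefore could hardly alter these differences or those of the classes, and they count among the 94 alternative values. Among class medians and single genes that were past 2-fold as reported, none reversed. No single gene was past 2-fold in the genotype comparisons or the difference of responses, so no reversal could be called there. With libraries rescaled to the median of ratios, 192 single-gene ratios over all comparisons moved by more than 0.1 and 48 did not. For the sum without the 48 genes the numbers were 187 and 53, and for equal sums 144 and 96. Shares of the 48 genes over nuclear loci alone were 29.4%, 4.71%, 25.03% and 4.45%. Depth limits LHCB7 and LHCB4.3 most.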
